A study of Mus musculus with 58 samples.

Results

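The response to traumatic brain injury (TBI) was examined in E4/Abca1+/- mice, which were chosen by genotype and treatment as the labels give them. They number 15 of the 58 mice sequenced, 8 with TBI and 7 with sham surgery. The series asked how the response to injury depends on the human APOE isoform and on the number of copies of Abca1, the transporter that moves cholesterol and phospholipid out of cells onto apolipoproteins. All 15 mice were on the C57BL/6 background, carried human APOE4 in place of both copies of the mouse gene (targeted replacement), and had 1 functional copy of Abca1 instead of 2. Nothing in the design restricts either change to a cell type. The mice were 3 months old at surgery. Under isoflurane both groups received a 4.5 mm craniotomy over the left parietal cortex, and only the TBI mice then received a controlled cortical impact, a single blow of a 3.0 mm metal tip to a depth of 1.0 mm at 3 m/s with a dwell time of 100 ms. Sham mice therefore share the anesthesia and the opened skull but not the impact. At day 14 hippocampus and cortex were taken from a coronal slice at the injury site and total RNA was sequenced, 1 library per mouse. Each group held both sexes, 4 females and 4 males with TBI and 4 females and 3 males with sham surgery.

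A blow to the cortex kills neurons at the site and opens the blood-brain barrier. Microglia, the resident phagocytes of the brain, clear debris and change from a surveying to a phagocytic and lysosomal state, monocytes enter from blood, and astrocytes around the lesion enlarge and build a scar. Cholesterol from cleared membranes leaves phagocytes through Abca1 and is carried by apoE, the main apolipoprotein made in brain. Values below are CPM, the read count of a gene relative to the size of its library, with library sizes scaled by the trimmed mean of M-values (TMM). A log2 fold change is TBI minus sham, and a gene was called higher or lower when its adjusted p (Benjamini-Hochberg over all genes tested) was under 0.05 in edgeR's quasi-likelihood test. In bulk tissue, fewer cells of a type and less RNA per cell cannot be told apart.

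The libraries held 5471936 to 37877346 counted reads. A count of 3, taken as the floor below which a level is not read, was worth 0.0777 to 0.537 CPM. The first principal component held 51.5% of the variance and separated the groups. Sham mice lay between -30.2 and -25.6 on it, apart from Sham 2, a male, at -9.99, and TBI mice lay between 7.27 and 40.2. Regional markers showed another mouse apart from the rest. TBI 8 had a mean level of 12 hippocampal genes of 2.95 on the log2(CPM + 1) scale, against 4.32 to 4.75 in the other TBI mice, and of 6 striatal genes of 6.87, against 4.33 to 4.70. Levels of 9 choroid plexus genes varied within both groups, from 1.87 to 5.22 in sham and from 1.89 to 5.42 in TBI mice, and 0 of the 9 were called (edgeR; unadjusted p under 0.05 for 0, and 0 called by DESeq2). Some results that rest on Sham 2, TBI 6 or TBI 8 are given with and without that mouse. For others the value of that mouse is given beside those of the rest.

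The gene with a copy removed was measured first. Abca1 had 29.5 to 43.3 CPM in sham mice (median 36.1) and 81.4 to 216 CPM in TBI mice (median 131). Every TBI mouse lay above every sham mouse, and the log2 fold change was 1.92 (standard error 0.17, adjusted p = 8.14e-07, edgeR). Scaled together with E4/Abca1+/+ mice, Abca1 had 36.1 ± 4.95 CPM (SD, n = 7) in sham mice with 1 copy and 45.9 ± 6.41 CPM (SD, n = 7) in sham E4/Abca1+/+ animals. The log2 difference was -0.35, which was not called (adjusted p = 0.552, edgeR). In injured mice the levels were 138 ± 44.4 CPM (n = 8) and 156 ± 74.2 CPM (n = 7), a log2 difference of -0.18 (adjusted p = 0.637, edgeR). Mouse Apoe, whose coding exons are replaced in these mice, had 16.8 to 22.7 CPM in sham and 20.9 to 28.9 CPM in TBI mice (log2 fold change 0.42, adjusted p = 0.000538, edgeR), and human APOE was not analysed here.

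Injury moved genes in both directions, and the increases were larger. Of 15083 genes tested, 2671 (17.7%) were higher and 2469 (16.4%) were lower after TBI. The median log2 fold change was 0.58 among the higher and -0.24 among the lower genes. At least a 2-fold change was found for 743 of the higher genes (27.8%) and for 12 of the lower genes (0.486%), and 32 higher genes rose at least 16-fold. The 32 were counted with no minimum level and include Slfn4, which was below the floor in every sham mouse. Every TBI mouse lay above every sham mouse for 997 genes (6.61%) and below for 524 (3.47%). The called higher genes took 7.47% to 8.58% of all counts in sham mice and 10.2% to 13.7% in TBI mice. The lower genes took 42.7% to 44.2% and 37.0% to 39.9%. These genes were called in the same mice, so the direction and separation of the shares follow from the choice of genes. The shares give only the size of the shift.

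The split between higher and lower depended on the scaling. Of the called genes 52.0% were higher with TMM factors, 62.4% with upper quartile factors (3011 higher) and 73.9% with total counts alone (3585 higher, 1269 lower). Total counts alone moved the median log2 fold change of all genes from -0.00228 to 0.0698. No gene called in one direction was called in the other under any alternative.

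**Figure D1:**
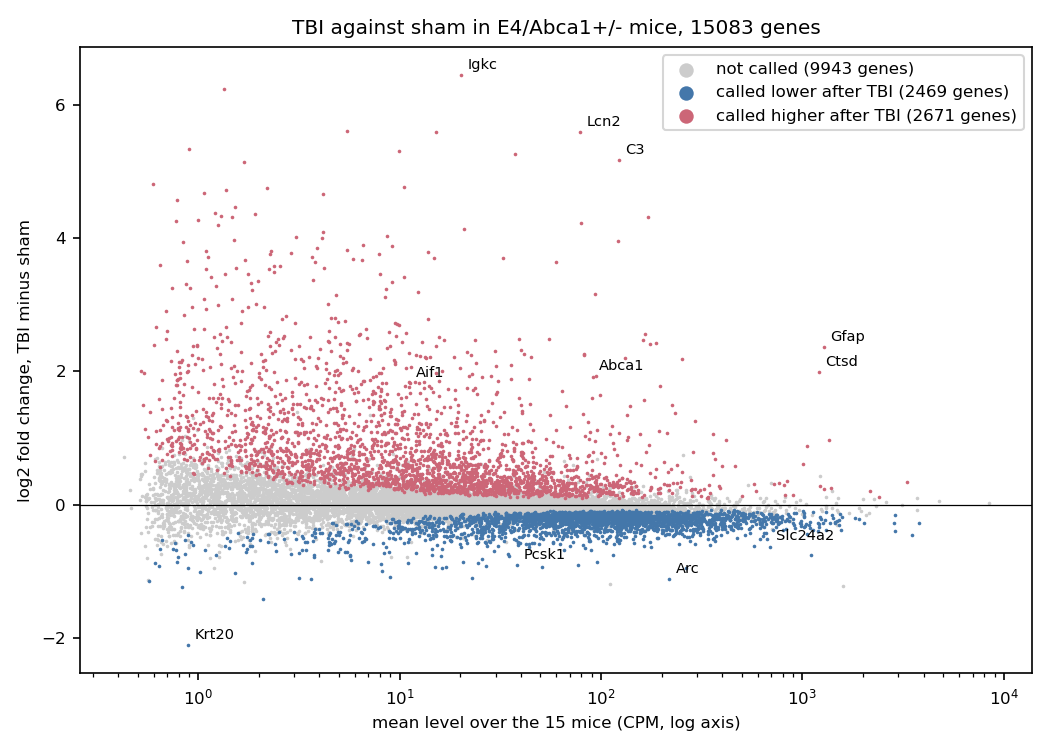
The log2 fold change (TBI minus sham) of each of the 15083 genes tested is plotted against its mean level over the 15 mice in CPM on a log axis. Red points are the 2671 genes called higher, blue points the 2469 called lower and grey points the rest. Red points reach far above 2, while almost all blue points lie between 0 and -1.

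Microglial genes were higher as a body. Of 18 genes of surveying microglia, 15 rose and 0 fell, with a median log2 fold change of 0.87 against -0.00228 over all genes. Aif1, which encodes the cytoskeletal protein Iba1 and had the smallest p of all genes, had 4.21 to 5.45 CPM in sham mice (median 4.80) and 12.6 to 21.9 CPM in TBI mice (median 16.6). The groups did not overlap, with a gap of more than 2-fold between the highest sham and the lowest TBI mouse (log2 fold change 1.82, adjusted p = 1.90e-07, edgeR). Fcrls rose by 1.71 and the growth factor receptor Csf1r by 1.07, and the purinergic receptor P2ry12 by 0.47 (adjusted p = 8.74e-05, edgeR). Mef2c, a transcription factor that neurons also express, had a log2 fold change of -0.27 and was not called (adjusted p = 0.0725, edgeR).

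The rise was steeper among genes of activated phagocytes. All 28 tested members were higher, with a median log2 fold change of 2.53 (2.77 without Sham 2), from 0.49 for the fatty acid binding protein Fabp5 to 4.31 for the lysozyme gene Lyz2. Spp1, which encodes the secreted bridging protein osteopontin, had 9.39 to 48.0 CPM in sham mice (median 14.2) and 56.2 to 310 CPM in TBI mice (median 136). The highest sham value was that of Sham 2, and the other 6 sham mice had at most 14.8 CPM. The log2 fold change was 3.16 (adjusted p = 1.52e-05, edgeR). Galectin-3 (Lgals3) had 24.6 ± 11.4 CPM (SD, n = 8) after TBI and 1.73 ± 1.79 CPM (n = 7) in sham mice. Igf1, a growth factor gene of the same list, changed less, with 21.8 ± 6.91 against 12.8 ± 1.56 CPM (log2 fold change 0.77, adjusted p = 0.00195, edgeR). The mean level of the 28 genes on the log2(CPM + 1) scale was 2.79 to 3.12 in 6 sham mice, 4.05 in Sham 2 and 4.59 to 5.95 in TBI mice, so Sham 2 lay between the groups.

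The promoter of Spp1 is shown because PU.1, the ETS factor that defines the myeloid lineage, reads a purine-rich motif. The 250 bases before the start on chromosome 5 (GRCm38.p6, RefSeq, plus strand, chr5:104434861-104435110) hold GAGGAAGT once, in capitals, from base -113.
Spp1: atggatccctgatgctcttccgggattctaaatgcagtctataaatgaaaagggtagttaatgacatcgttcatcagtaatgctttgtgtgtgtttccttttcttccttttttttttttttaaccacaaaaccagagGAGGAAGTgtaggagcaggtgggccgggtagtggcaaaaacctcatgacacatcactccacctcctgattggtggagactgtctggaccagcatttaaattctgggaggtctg
Searched on both strands from 250 bases before to 50 bases after the start, GAGGAAGT was found at 3.42% of the 11693 tested genes with a RefSeq promoter, at 5.75% of the higher genes and at 2.94% of the lower genes. In the phagocyte list Spp1 was the 1 match among 21 genes with a promoter.

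Receptors and enzymes of debris uptake rose with them. All 6 Fc receptor genes, which bind antibody-coated material, were higher (median log2 fold change 2.16). The inhibitory receptor Fcgr2b had 3.94 to 7.12 CPM in sham (median 4.10) and 14.4 to 34.1 CPM in TBI mice (median 24.1), with no overlap (log2 fold change 2.38, adjusted p = 2.42e-07, edgeR). All 6 genes of the phagocyte NADPH oxidase, which makes superoxide, were higher (median 2.30), led by the catalytic subunit Cybb at 3.88.

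Of 40 lysosomal genes 35 rose and 0 fell, with a median of 0.75. All 11 proteases were higher, against 12 of 16 glycosidases and lipases. Cathepsin D (Ctsd), an aspartic protease, had 373 to 740 CPM in sham mice (median 429) and 905 to 2848 CPM in TBI mice (median 1816). Sham 2 held the highest sham value and the next was 463 CPM, and the groups did not overlap (log2 fold change 1.99, adjusted p = 3.63e-06, edgeR). Cathepsin S (Ctss) rose by 2.18 and progranulin (Grn) by 1.57. The increases in Npc1, a cholesterol exporter of the lysosomal membrane, and in Psap, the saposin precursor, were small at 0.29 and 0.20. The sphingomyelinase Smpd1 had 92.3 ± 5.87 CPM after TBI and 97.0 ± 1.89 CPM in sham mice (log2 fold change -0.07, adjusted p = 0.194, edgeR).

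The Ctsd promoter is shown because TFEB, the master factor of lysosome genes, binds a palindrome of the E-box type. Its 250 bases before the start on chromosome 7 (GRCm38.p6, RefSeq, minus strand, chr7:142387828-142388077) hold TCACGTGA once, in capitals, from base -99.
Ctsd: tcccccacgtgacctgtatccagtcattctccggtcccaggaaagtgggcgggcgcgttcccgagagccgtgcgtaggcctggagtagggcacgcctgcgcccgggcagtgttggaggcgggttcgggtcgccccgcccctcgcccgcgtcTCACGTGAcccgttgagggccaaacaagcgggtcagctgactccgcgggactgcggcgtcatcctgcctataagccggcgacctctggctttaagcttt
The palindrome was found at 2.02% of tested genes with a promoter, at 1.58% of the higher genes and at 4 of 31 lysosomal genes (12.9%), namely Ctsd, Ctsa, Gla and Mcoln1. Of these Ctsd and Ctsa rose, while Gla (0.22) and Mcoln1 (-0.07) were not called. Tfeb itself rose by 0.76 (adjusted p = 7.85e-05, edgeR).

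Complement, the cascade that tags debris and synapses for uptake, was higher at 18 of 24 tested genes (median 1.56). All 8 genes of the classical pathway rose. C1qa, a chain of the recognition molecule C1q, had 37.5 to 87.0 CPM in sham (median 48.8) and 183 to 347 CPM in TBI mice (median 289). Sham 2 was again the highest sham mouse, and the groups did not overlap (log2 fold change 2.41, adjusted p = 2.42e-07, edgeR). C3, the protein at which the pathways meet, ranged more widely, from 0.393 to 34.3 CPM in sham (median 1.01) and from 65.0 to 505 CPM in TBI mice (median 174). Its log2 fold change was 5.17 with all mice and 7.52 without Sham 2, the next sham mouse having 3.34 CPM (adjusted p = 0.00011 with all mice, edgeR). Among inhibitors, Serping1 (2.13) and Clu (0.96) rose, whereas Cd55 had 5.66 ± 0.994 against 5.64 ± 0.808 CPM.

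Sensors of microbial and damage signals rose at both levels of the pathway. All 10 Toll-like receptor genes tested with their co-receptors were higher (median 1.67), led by Tlr2 at 3.19, and so were 8 of 10 adaptors (median 0.77). Unc93b1, which escorts the nucleic acid sensing receptors to endosomes, had 14.7 ± 2.87 CPM in sham and 54.4 ± 12.6 CPM in TBI mice. The kinase gene Irak1 (0.09) and the ubiquitin ligase gene Traf6 (-0.05) were not called. Of 12 inflammasome genes, which process interleukin-1, all were higher (median 1.76), among them the adaptor Pycard (2.41), Nlrp3 (1.52), the pore protein gene Gsdmd (1.66) and Casp1 (0.75).

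Interferon response genes were higher without exception in the list, 34 of 34, with a median of 1.67. They divided into 10 sensors and transcription factors (median 1.06) and 24 effectors (median 1.79). Gbp3, a guanylate-binding GTPase, had 3.83 to 7.83 CPM in sham mice (median 4.64) and 11.5 to 22.3 CPM in TBI mice (median 18.9), with no overlap (log2 fold change 1.84, adjusted p = 7.51e-07, edgeR). Ifitm3, which blocks viral entry, had 7.04 to 13.4 CPM (median 8.04) and 18.2 to 46.7 CPM (median 32.8), again apart (1.93, adjusted p = 8.10e-07, edgeR). Sham 2 was the highest sham mouse for both genes. Tmem173, which encodes the DNA-sensing adaptor STING, had 3.91 to 5.79 CPM in sham and 8.54 to 11.7 CPM in TBI mice, and the DNA sensor gene Mb21d1 rose by 0.49 (adjusted p = 0.0324, edgeR). Irf7, which amplifies the response, rose by 2.35.

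The Gbp3 promoter shows the interferon-stimulated response element, at which ISGF3 and the IRF factors bind. The 250 bases before the start on chromosome 3 (GRCm38.p6, RefSeq, plus strand, chr3:142559794-142560043) hold 2 overlapping copies of GAAANNGAA, read on the opposite strand, in capitals, the first from base -44.
Gbp3: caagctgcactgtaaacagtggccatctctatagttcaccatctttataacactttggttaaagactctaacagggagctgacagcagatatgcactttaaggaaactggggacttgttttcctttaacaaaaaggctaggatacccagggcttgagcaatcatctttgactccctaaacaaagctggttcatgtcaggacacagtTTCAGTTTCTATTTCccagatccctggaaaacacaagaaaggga
The element was found at 8.54% of tested genes with a promoter, at 12.2% of higher genes, at 7.20% of lower genes and at 18 of 26 interferon response genes (69.2%). The 18 included Ifitm3, Ifit1, Isg15, Bst2, Oas1a and Stat2.

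Antigen presentation followed. In MHC class I, which displays peptides from inside the cell, 18 of 19 genes rose (median 1.78), all 9 heavy chain genes and B2m included. H2-K1 had 22.2 to 39.7 CPM in sham (median 24.7) and 80.3 to 187 CPM in TBI mice (median 129), without overlap (log2 fold change 2.25, adjusted p = 4.51e-07, edgeR). The heavy chain genes are near-identical in sequence, so the division of reads among them is uncertain. The inducible proteasome subunits Psmb8 (2.14) and Psmb9 (2.18) rose, and Psmb10 (0.13) was not called.

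In MHC class II, which displays peptides taken up from outside, 8 of 9 genes rose (median 1.86). H2-Aa had 0.843 to 4.0 CPM in sham mice (median 1.59) and 8.54 to 77.9 CPM in TBI mice (median 20.1). TBI 6 held the highest value and the other TBI mice had at most 29.4 CPM, and the groups did not overlap (log2 fold change 3.70, adjusted p = 1.76e-05, edgeR). Ciita, the factor that switches these genes on, had 1.50 ± 0.514 against 1.18 ± 0.322 CPM and was not called (adjusted p = 0.192, edgeR).

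**Figure D2:**
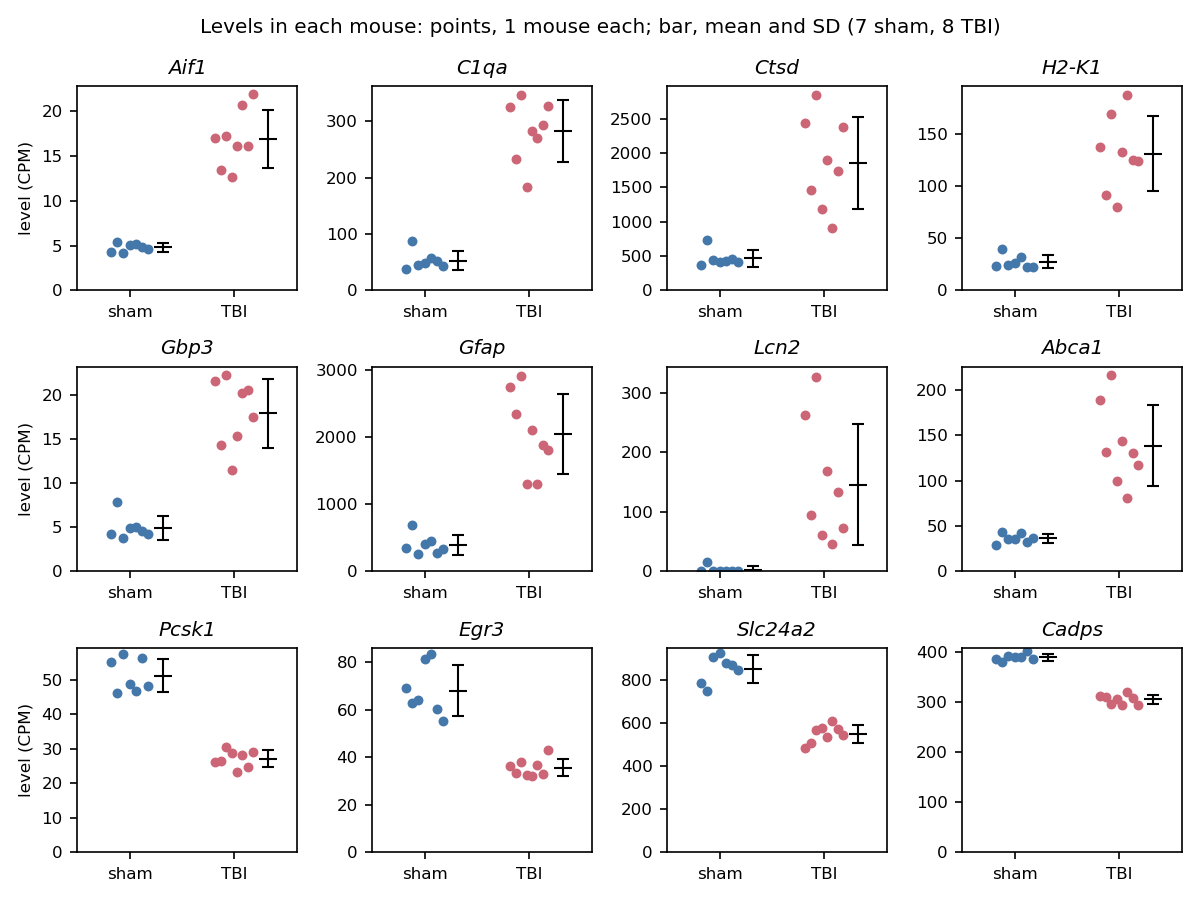
The level in CPM of 12 genes in each of 7 sham mice (blue) and 8 TBI mice (red), with the mean and SD beside the points. In all 12 panels the groups do not overlap, and one sham mouse, Sham 2, lies above the other sham mice for C1qa, Ctsd, Gbp3 and Lcn2.

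Signals that recruit and instruct leukocytes were mostly higher. Of 21 chemokine genes 17 rose and 1 fell (median 2.44). The 14 ligands had a median of 3.33, but Ccl2, Ccl4 and Cxcl1 had sham means of 0.114, 0.0907 and 0.107 CPM, at or below the floor in most sham libraries. Among better measured genes Cxcl16 had 11.2 ± 4.36 CPM after TBI and 1.96 ± 0.866 CPM in sham mice. The neuronal ligand Cx3cl1 went the other way, with 731 ± 97.8 against 947 ± 37.3 CPM (log2 fold change -0.37, adjusted p = 0.000307, edgeR), while its microglial receptor Cx3cr1 rose by 1.18. Cxcl12, which holds progenitor cells in place, had 64.2 ± 8.28 and 63.4 ± 3.72 CPM.

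Of 23 cytokine genes 18 rose and 1 fell (median 0.96). Il1a rose by 2.0, Il1b by 1.81 and Tgfb1 by 1.47. Receptors moved more uniformly than ligands, 12 of 13 against 6 of 10, and the exception among them was Lifr, which fell by 0.21 (adjusted p = 0.0395, edgeR) and was called in some alternatives only. The oncostatin receptor Osmr rose by 2.04. Il34, a neuronal ligand of Csf1r, was not called (-0.08).

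Several markers of cells from blood lay near or below the floor in sham mice. Of 8 neutrophil genes 5 were not among the genes tested, and all 3 tested rose, Csf3r from 5.92 ± 1.51 to 23.2 ± 6.42 CPM. Csf3r lay well above the floor in sham mice too, and which cells held it was not tested. A gene at the floor in sham mice can pass the filter on low counts through the TBI mice alone. Leaving out any 1 of TBI 1 to TBI 7 left 2 of the 3 tested, and thinned libraries left 1. Of 7 monocyte genes 6 were called higher, but Plac8, Clec4d and Ly6c2 had sham means of 0.0301, 0.0689 and 0.0919 CPM, below the floor, and their TBI means were 1.09 to 1.40 CPM. The count was 2 without TBI 1, TBI 2 or TBI 5 and 3 without TBI 3, TBI 6 or TBI 8, with 4 of the 7 genes then tested, and 4 without Sham 2 or Sham 6, with all 7 tested. Of 8 genes of border macrophages 3 rose (6 without TBI 6), Ms4a7 by 3.37, while Mrc1 (0.74) and Lyve1 (-0.61) were not called.

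Plasma cell transcripts were higher, and the size of the fold depended on TBI 6. Igkc, an antibody light chain, had 0.0562 to 0.916 CPM in sham mice (median 0.357) and 1.85 to 251 CPM in TBI mice (median 6.40). TBI 6 had the 251 CPM and the next TBI mouse 15 CPM. The groups did not overlap. The log2 fold change was 6.44 with all mice (adjusted p = 0.00103, edgeR, and 0.0744 in limma-voom) and 3.96 without TBI 6 (adjusted p = 2.2e-05, edgeR). Igha, the heavy chain of IgA, had 0 to 1.75 CPM in sham and 3.22 to 147 CPM in TBI mice (median 10.3), a log2 fold change of 5.58, of 4.19 without TBI 6 and of 6.22 without Sham 2. Jchain, which joins antibody units, rose by 4.66, and by 3.15 without TBI 6. The T cell gene Cd4, which microglia can also express, was called with all mice (1.63, adjusted p = 0.0394, edgeR) and not without any 1 of 8 mice (0.65 without TBI 8), and Trac rose by 1.14. Jchain, Cd4 and Trac were the 3 tested of 13 T and B cell genes, and the other 10 were not among the genes tested. With thinned libraries 0 of the 13 were tested.

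Astrocyte genes divided into a strong reactive and a mild resting set. Of 35 reactive genes 30 rose and 0 fell (median 2.04). Gfap, the intermediate filament by which reactive astrocytes are recognised, had 266 to 688 CPM in sham (median 350) and 1297 to 2907 CPM in TBI mice (median 1994), without overlap (log2 fold change 2.37, adjusted p = 1.07e-06, edgeR). Lcn2, a secreted iron-siderophore binder, had 0.169 to 16.5 CPM in sham (median 0.428) and 46.2 to 327 CPM in TBI mice (median 114). Its log2 fold change was 5.59, and 8.03 without Sham 2, as the other sham mice had at most 1.47 CPM. Steap4, a metalloreductase gene, rose by 5.26, and by 7.45 without Sham 2. Vim (2.55) and the hyaluronan receptor Cd44 (2.46) rose, and Stat3, a factor through which the reactive state is driven, rose by 0.58.

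Every TBI mouse lay above every sham mouse for 23 of the 35 reactive genes, against 6.61% of all genes. Serpina3n, a protease inhibitor widely used as a reactive marker, was a gene whose groups overlapped. It had 63.9 to 194 CPM in sham (median 134) and 188 to 623 CPM in TBI mice (median 289), a log2 fold change of 1.37 (adjusted p = 0.000407, edgeR).

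Of 18 genes of resting astrocytes 10 rose and 0 fell, with a median of 0.21. The water channel Aqp4 had 138 to 208 CPM in sham (median 163) and 235 to 549 CPM in TBI mice (median 406), with no overlap (log2 fold change 1.25, adjusted p = 5.42e-06, edgeR). The glutamate transporter Slc1a3 rose by 0.61, whereas the more abundant Slc1a2 had 3.58e+03 ± 220 CPM in sham and 3.85e+03 ± 337 CPM in TBI mice (0.11, adjusted p = 0.158, edgeR), and glutamine synthetase (Glul) was not called (0.10).

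Matrix genes of the scar rose in part. Of 48 genes 28 were higher (18 in limma-voom) and 0 lower, with a median of 0.60, but 5 of 13 collagens were called against 11 of 16 proteases and inhibitors. Timp1, an inhibitor of matrix metalloproteases, had 0.223 to 1.62 CPM in sham (median 0.602) and 2.31 to 21.1 CPM in TBI mice (median 8.81; log2 fold change 3.81, adjusted p = 1.51e-05, edgeR). The fibrillar collagen Col3a1 rose by 1.19 (adjusted p = 0.0158, edgeR), while Col1a1 (0.77, adjusted p = 0.0599, edgeR) and Col1a2 (0.61, adjusted p = 0.208, edgeR) were not called and spread widely, Col1a2 at 30.3 ± 18.6 CPM after TBI. Among 12 genes of the perineuronal net, the matrix coat of inhibitory neurons, 6 were not called and the median was -0.03. Acan (-0.43), Ncan (-0.21), Tnr (-0.32) and Hapln4 (-0.48) fell (33.3%, against 16.4% of all genes). Vcan (0.30) and Hapln1 (0.19) rose (16.7%, against 17.7% of all genes). Both increases were lost without any 1 of 5 mice (Sham 2, Sham 6, TBI 3, TBI 5 or TBI 7), and 2 of the 4 decreases with total counts alone.

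Most vascular and oligodendrocyte genes that rose did so in small steps. Of 20 endothelial genes 8 rose (median 0.16), 6 of 17 general markers and 2 of 3 leukocyte adhesion molecules, Icam1 (2.17) and Vcam1 (1.11), with the junction gene Cldn5 among the markers that rose (0.37) and Pecam1 not called (0.10). Of 10 mural cell genes 5 rose, Anpep by 1.34, and the count was 3 without Sham 2 and 2 without Sham 6, TBI 1 or TBI 2. Of 20 myelin and oligodendrocyte genes 9 rose, each by less than 0.50. Mbp, a major myelin protein, had 1005 to 1347 CPM in sham (median 1158) and 1173 to 1551 CPM in TBI mice (median 1373), which overlapped (log2 fold change 0.23, adjusted p = 0.0147, edgeR). The myelin count was 5 without Sham 2 or without TBI 5. Among 9 genes of progenitors and early oligodendrocytes 5 rose (55.6%, against 17.7% of all genes). Only Tnr fell (-0.32), 11.1% of the list against 16.4% of all genes. Enpp6 (0.90) and Bcas1 (0.45), which mark newly forming cells, rose, and Pdgfra, the progenitor receptor, had 72.3 ± 8.07 against 70.9 ± 7.79 CPM.

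Cell division genes rose in the mitotic set more than in the replication set, 10 of 17 against 1 of 13. The mitotic kinase gene Cdk1 had 0.142 to 0.547 CPM in sham (median 0.337) and 0.716 to 1.84 CPM in TBI mice (median 1.13), low but without overlap (log2 fold change 1.86, adjusted p = 3.44e-05, edgeR). Top2a rose by 1.25 and Mki67 by 1.02, whereas Mcm2 had 4.15 ± 1.11 against 3.98 ± 0.576 CPM. Of 14 genes of neural progenitors and newborn neurons 8 rose (5 without Sham 2, TBI 2 or TBI 5). Those that glia share, Nes (0.56), Sox2 (0.44) and Fabp7 (0.82), were among them, and Dcx, the marker of newborn neurons, had 31.5 ± 5.29 against 30.7 ± 3.52 CPM. Of 31 cell death genes 19 rose (median 0.40), Casp8 by 1.30 and the receptor Fas by 1.51, and the survival gene Bcl2 had 28.0 ± 5.35 against 27.4 ± 2.55 CPM.

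**Figure D3:**
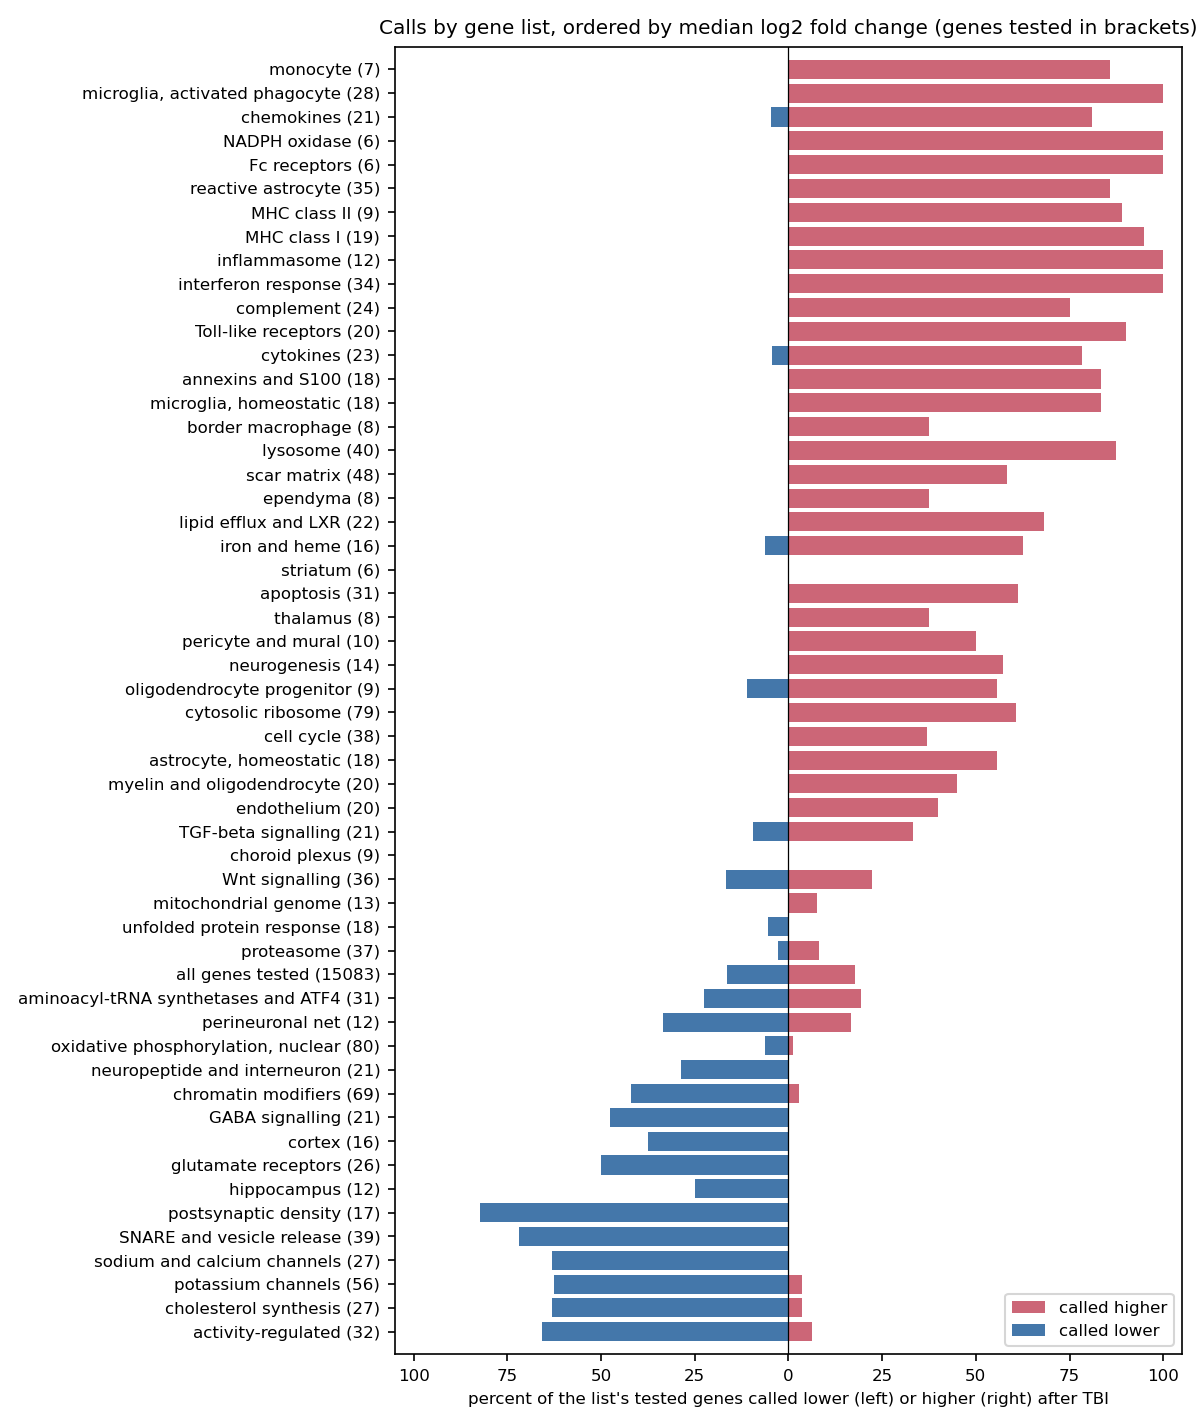
For each gene list, the percent of tested members called lower (blue, left) or higher (red, right) after TBI, ordered by the list's median log2 fold change, with the number tested in brackets. The bar of all 15083 genes, 16.4% lower and 17.7% higher, is the background, and immune and lysosomal lists lie above it while synaptic and channel lists lie below.

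Neuronal genes were lower, in small steps. Of 39 genes of vesicle release 28 fell and 0 rose, with a median of -0.27 against a background of 16.4% lower. Syt2, the fast calcium sensor of parvalbumin interneurons, fell from 23.5 to 47.5 CPM in sham (median 29.5) to 7.27 to 22.4 CPM in TBI mice (median 13.8; log2 fold change -1.10, adjusted p = 0.000777, edgeR). The active zone scaffolds Bsn (-0.50) and Rims3 (-0.74) fell, as did Snap25, at 2.52e+03 ± 394 against 3.31e+03 ± 174 CPM.

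On the receiving side 14 of 17 postsynaptic density genes and 13 of 26 glutamate receptor genes fell, and 0 rose in either list. Grin2b, an NMDA receptor subunit, had 91.7 to 163 CPM in sham (median 129) and 39.9 to 89.4 CPM in TBI mice (median 74.0). The groups were just apart (log2 fold change -0.86, adjusted p = 0.000872, edgeR). Grin2a fell by 0.82, the obligatory subunit Grin1 by 0.33 and the AMPA subunit Gria2 by 0.22. The scaffold Homer1, whose short form is also induced by activity, fell by 0.64.

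Of 21 genes of GABA signalling 10 fell (6 with total counts alone) and 0 rose (median -0.16). Gad1, which makes GABA, had 371 ± 32.7 CPM after TBI and 449 ± 23.8 CPM in sham mice (-0.27, adjusted p = 0.000901, edgeR), and the receptor subunit Gabrg3 fell by 0.71. Of 21 interneuron and neuropeptide genes 6 fell (28.6%, against 16.4% of all genes), and 10 fell without TBI 8. Pvalb fell by 0.50, Cort by 0.50 and Sst by 0.29, and Vip (-0.20) was not called. The median of that list, -0.06, became 0.01 with total counts alone.

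Many ion channel genes were lower. Of 56 potassium channel genes 35 fell and 2 rose (median -0.32), 20 of 26 voltage-gated pore subunits and 10 of 20 inward rectifier, background and calcium-activated channels among those that fell. Kcnh7 fell by 0.93 and Kcnq3, a subunit of the M-current, by 0.60. The 2 that rose were Kcnj10, the astrocyte inward rectifier (0.34), and Kcnk6, a background channel (1.08, at 11.1 ± 2.35 against 5.23 ± 0.646 CPM). Of 27 sodium, calcium and HCN channel genes 17 fell and 0 rose (median -0.29), 5 of 8 sodium, 11 of 15 calcium and 1 of 4 HCN genes, Scn1a by 0.62 and the T-type channel Cacna1i by 0.51. Slc24a2, a potassium-dependent sodium-calcium exchanger, had 745 to 924 CPM in sham (median 865) and 484 to 606 CPM in TBI mice (median 554), clearly apart (log2 fold change -0.63, adjusted p = 5.81e-07, edgeR).

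Genes induced by neuronal activity were mostly lower. Of 32 genes 21 were lower and 2 higher, with a median log2 fold change of -0.55. Egr3, an immediate early transcription factor, had 55.3 to 83.3 CPM in sham (median 64.2) and 32.04 to 42.9 CPM in TBI mice (median 34.9), apart in every mouse (log2 fold change -0.93, adjusted p = 1.09e-06, edgeR). Arc, which regulates AMPA receptor uptake, had 201 to 427 CPM (median 312) and 69.6 to 261 CPM (median 132), which overlapped (-1.12, adjusted p = 0.00295, edgeR). Npas4 fell by 1.08, Egr1 by 0.95, the activin subunit Inhba by 1.10 and the neurotrophin Bdnf by 0.56. Fos had 22.9 ± 8.61 against 32.3 ± 10.2 CPM and was not called (adjusted p = 0.0764, edgeR). Jun (0.36, adjusted p = 0.0428, edgeR) and Gadd45g (0.61) rose, and 1 of the 2 was called in 12 of the 15 fits that left out a mouse.

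Pcsk1, the convertase that cuts neuropeptide precursors, had the smallest p of the lower genes. It had 46.1 to 57.5 CPM in sham (median 48.8) and 23.3 to 30.5 CPM in TBI mice (median 27.3; log2 fold change -0.91, adjusted p = 3.23e-07, edgeR). Its promoter is shown for the cyclic AMP response element, which CREB binds in genes induced by activity. The 250 bases before the start on chromosome 13 (GRCm38.p6, RefSeq, plus strand, chr13:75089607-75089856) hold TGACGTCA once, in capitals, from base -78.
Pcsk1: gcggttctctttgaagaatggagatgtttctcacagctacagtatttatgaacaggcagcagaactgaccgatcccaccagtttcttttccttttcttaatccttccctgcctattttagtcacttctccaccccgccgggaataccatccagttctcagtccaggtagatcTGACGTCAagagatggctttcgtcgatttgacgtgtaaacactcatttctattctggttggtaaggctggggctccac
The element was found at 3.44% of tested genes with a promoter, at 2.35% of higher genes, at 4.36% of lower genes and at 4 of 24 activity-regulated genes (16.7%), namely Pcsk1, Scg2, Dusp1 and Btg2. Of these Btg2 (0.24) was not called and the others fell.

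Regional markers bear on what each slice held. Of 16 cortical layer genes 6 fell (median -0.20), Lamp5 by 0.76 and Tbr1 by 0.36. Of 12 hippocampal genes 3 fell, Itpka, Lct and Dsp, with Lct at 6.75 to 24.3 CPM in sham (median 22.2) and 1.84 to 17.9 CPM in TBI mice (median 10.5; -0.94, adjusted p = 0.0308, edgeR), and 1 of the 12 was called without Sham 3, Sham 5 or TBI 2. The striatal gene Adora2a had 58.4 CPM in TBI 8 and 1.38 to 5.97 CPM in the other TBI mice, against 1.37 to 10.2 CPM in sham mice, and 0 of 6 striatal genes were called (edgeR; unadjusted p under 0.05 for 0, and 0 called by DESeq2). Prkcd, which marks thalamic relay neurons and is also expressed by immune cells, had 7.93 to 14.99 CPM in sham (median 10.02) and 17.4 to 36.4 CPM in TBI mice (median 23.2), without overlap (1.22, adjusted p = 2.22e-05, edgeR). Of 8 thalamic genes 3 were called higher (37.5%, against 17.7% of all genes). Slc17a6, the glutamate transporter of thalamic neurons, had a log2 fold change of -0.39 and was not called. The part of tissue composition in the neuronal results was not tested.

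**Figure D4:**
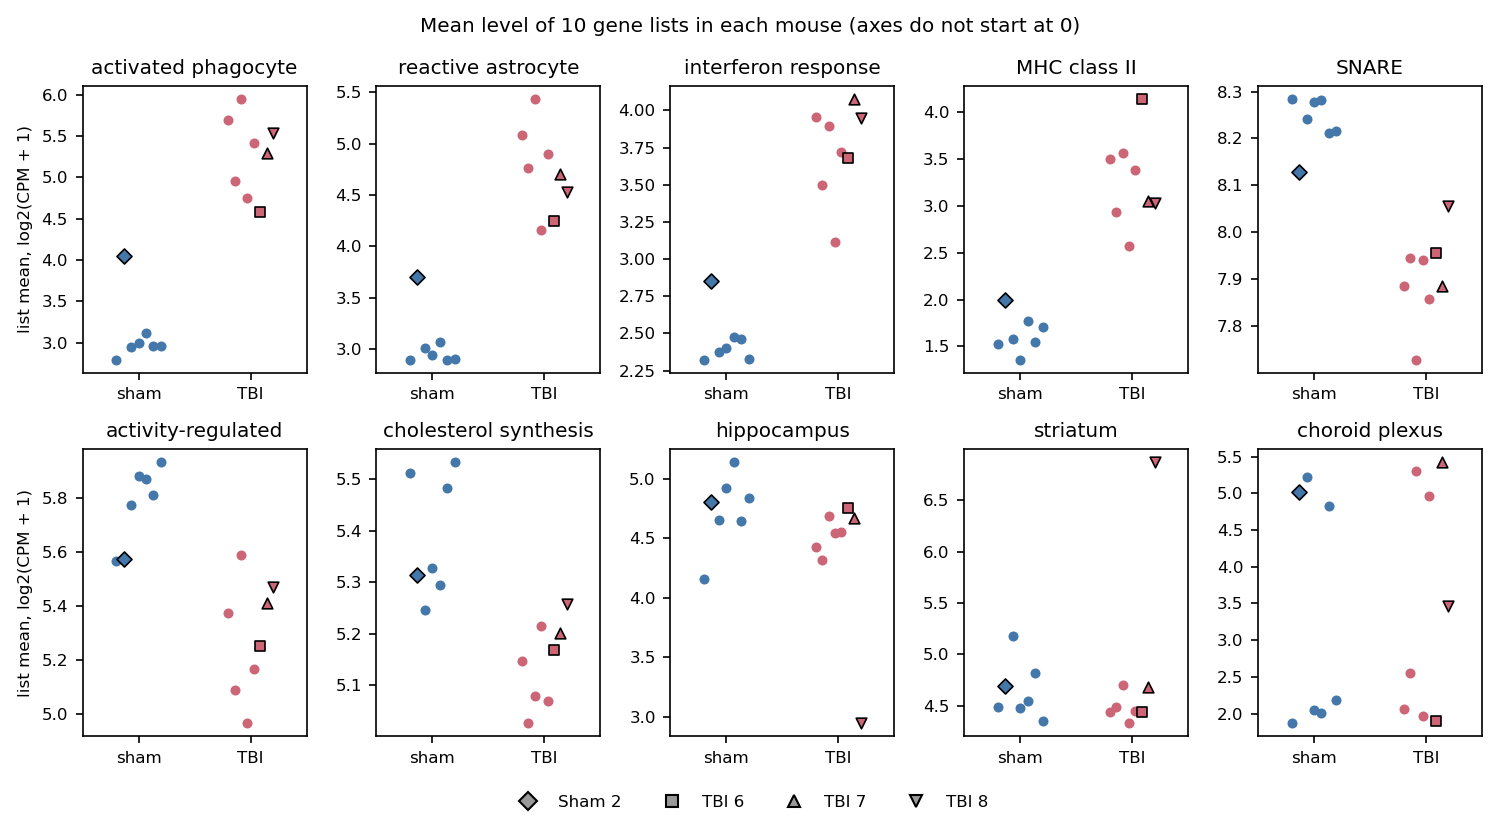
The mean of log2(CPM + 1) over the genes of 10 lists in each mouse, sham in blue and TBI in red, with Sham 2, TBI 6, TBI 7 and TBI 8 marked. The groups separate for the phagocyte, astrocyte, interferon, MHC class II and SNARE lists, and TBI 8 stands apart for hippocampal (2.95) and striatal (6.87) genes.

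Lipid genes split by direction. Of 27 genes of cholesterol synthesis and its regulation 17 fell and 1 rose (median -0.33). Srebf2, the master factor of the pathway, had 218 to 277 CPM in sham (median 249) and 166 to 199.9 CPM in TBI mice (median 182), with every TBI mouse below every sham mouse (log2 fold change -0.45, adjusted p = 4.83e-06, edgeR). The 1 that rose was Srebf1, the related factor that liver X receptors (LXR) switch on, from 42.0 to 61.3 CPM in sham (median 53.4) to 81.0 to 146 CPM in TBI mice (median 110; 1.03, adjusted p = 7.82e-06, edgeR).

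In the opposite direction, 15 of 22 genes of lipid efflux, storage and LXR rose and 0 fell (median 0.55). Besides Abca1, they included the apolipoproteins Apoc1 (2.46) and Apod (1.35), the lipid droplet coat Plin2 (1.69), the receptor Nr1h3, which encodes LXR-alpha (0.76), and the partner transporter Abcg1, at 0.30 much less than Abca1. Abca7, a close relative of Abca1, had 21.6 ± 3.25 CPM after TBI and 22.1 ± 3.55 CPM in sham mice (adjusted p = 0.865, edgeR).

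Iron and heme genes were higher at 10 of 16 (median 0.50). Hmox1, which breaks down heme, had 4.60 to 7.53 CPM in sham (median 5.05) and 11.3 to 28.4 CPM in TBI mice (median 19.5), without overlap (1.84, adjusted p = 2.69e-06, edgeR). The ferritin light chain Ftl1 rose by 1.16, the exporter Slc40a1 by 0.72 and the ferroxidase Cp by 2.48. The transferrin receptor Tfrc, which brings iron in, fell by 0.41 (adjusted p = 0.0159, edgeR).

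Ribosomal protein genes rose in small steps. Of 79 ribosomal protein genes 48 rose and 0 fell, 60.8% against 17.7% of all genes, with a median of 0.25. Rps9 had 58.3 to 64.8 CPM in sham (median 62.0) and 75.3 to 88.3 CPM in TBI mice (median 80.6), a small step but with no overlap (0.39, adjusted p = 3.63e-06, edgeR). The count ran from 41 to 54 across scalings, filters and tests. Ribosomal protein genes have many processed pseudogenes, so their read counts are uncertain, and Rpl13 for example had 0.797 ± 0.273 CPM.

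Of 80 nuclear genes of oxidative phosphorylation 5 fell (6.25%) and 1 rose (1.25%), against 16.4% and 17.7% of all genes. The median was -0.03, and the ATP synthase subunit Atp5b fell by 0.19. With total counts alone 8 rose and 1 fell, with a median of 0.04, and without TBI 6, 14 fell. Of 18 unfolded protein response genes 1 was called, Atf6, which fell by 0.39, and the chaperone Hspa5 had 490 ± 162 against 475 ± 111 CPM. Of 31 aminoacyl-tRNA synthetase and ATF4 target genes 6 rose (19.4%), Trib3 by 0.79 among them, and 7 fell (22.6%), with a median of -0.02. The shares over all genes were 17.7% and 16.4%. With total counts alone 9 of the 31 rose and 0 fell. The proteasome was called at 4 of 37 genes, 2 of them the inducible subunits, and ND3 was 1 of 13 mitochondrial transcripts called higher.

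Chromatin modifiers fell at 29 of 69 genes and rose at 2 (median -0.14). Hdac4 fell by 0.43 and the methyltransferase Kmt2a by 0.37, and the deacetylase Hdac1 rose by 0.29. With total counts alone 15 fell. Of 36 Wnt genes 8 were higher (22.2%) and 6 lower (16.7%), near the shares of 17.7% and 16.4% over all genes, and of 21 TGF-beta and BMP genes 7 rose, Tgfbi by 1.70, and 2 fell. Of 18 annexin and S100 genes, which bind calcium, 15 rose (median 0.90), S100a6 by 1.66 and Anxa2 by 1.16.

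The 10 higher genes with the smallest p were Aif1, Fcgr2b, C1qa, Cx3cr1, Tmem173, Pld4, H2-K1, Fxyd1, Unc93b1 and Vav1. For each of them every TBI mouse lay above every sham mouse, and the log2 fold changes ran from 1.18 for Tmem173 and Cx3cr1 to 2.41 for C1qa. Ranking by p in the same mice favours genes whose groups do not overlap, here and for the lower genes below. Pld4 encodes an endolysosomal nuclease of phagocytes and Vav1 an exchange factor of blood-lineage cells, whereas Fxyd1, a regulator of the sodium pump, is not an immune gene and had 16.9 to 25.6 CPM in sham and 41.5 to 76.1 CPM in TBI mice. The lower genes with the smallest p included Pcsk1, Nos1ap, Slc24a2, Cadps, Egr3, Slc6a17, Ralgapa1 and Add2. All 8 separated the groups, with Cadps, which primes dense-core vesicles, at 378.8 to 402.2 CPM in sham and 294 to 321 CPM in TBI mice for a log2 fold change of -0.35.

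Some genes at the extremes of fold were low in one group. Slfn4, a Schlafen gene of myeloid cells, had at most 2 counts in any sham library and 0.385 to 6.22 CPM in TBI mice. Cd5l, a macrophage-secreted protein, had 0 to 0.999 CPM in sham and 0.673 to 21.1 CPM in TBI mice (median 9.15), and Sham 2 was the 1 sham mouse within the TBI range. The log2 fold change of Cd5l was 5.60, and 7.50 without Sham 2, where the other sham mice were at or under the floor. The metalloprotease Mmp3 had 0 CPM in all sham mice but Sham 2 (0.499) and 0.0518 to 11.4 CPM in TBI mice, so no fold is given. Acod1, which makes itaconate, had at most 4 counts in any sham library and 0.496 to 4.13 CPM in TBI mice, and no fold is given for it either. It and the neutrophil-attracting chemokine Cxcl5 (log2 fold change 5.30, and 6.28 without Sham 2) complete the 10 higher genes with the largest fold, beside Igkc, Igha, Lcn2, C3 and Steap4. Krt20, a keratin, headed the lower genes by fold, with 1.18 to 2.85 CPM in sham (median 1.28) and 0 to 0.920 CPM in TBI mice (median 0.255; -2.11, adjusted p = 0.000514, edgeR). After it came Mylk3, a myosin kinase gene (-1.42), Gm10635 (-1.24, and -1.96 without TBI 8, but not called without any 1 of 12 other mice, at adjusted p up to 0.0987, edgeR), Arc, Adgrd1 (-1.11), Inhba, Syt2, Npas4, Asb11 (-1.02) and Gm11762 (-1.02).

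The response was present in both sexes. In females 1824 genes (12%) were called higher and 1294 (8.54%) lower, and in males 1286 (8.48%) and 863 (5.69%), with 4 females against 4 and 4 males against 3. The difference between the sexes, male minus female, was called for 0 genes in either direction (0% of 15159, edgeR; 232 at an unadjusted p under 0.05 and 0 by DESeq2). The smallest p were those of AK010878 (difference 1.04), Pon2 (-0.46) and Chrna2 (1.88), each at an adjusted p of 1 in edgeR. The median log2 fold change of the activated phagocyte genes was 3.05 in females and 2.14 in males. Sham 2 is one of the 3 male sham mice.

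The same lists were measured in other genotypes, each against its own sham mice. The 14 E4/Abca1+/+ mice had 1477 genes called higher and 863 lower, and the 13 E3/Abca1+/- mice 1807 and 1430. These counts, and the medians below for these 2 genotypes, come from 4-group fits that included the E4/Abca1+/- mice. Values for E4/Abca1+/- mice come from the 2-group fit of 15 mice, so the counts are not strictly alike. Library totals had a median of 6835372 counts in injured E4/Abca1+/+, 15116303.5 in injured E4/Abca1+/- and 19011838.5 in injured E3/Abca1+/- mice, and the part of depth in these counts was not tested. For activated phagocyte genes the median log2 fold change was 2.53 in E4/Abca1+/-, 2.16 in E4/Abca1+/+ and 2.25 in E3/Abca1+/- mice. For reactive astrocyte genes the medians were 2.04, 1.61 and 1.64 in the same order, and for lysosomal genes 0.75, 0.51 and 0.52. For activity-regulated genes they were -0.55, -0.43 and -0.58.

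**Figure D5:**
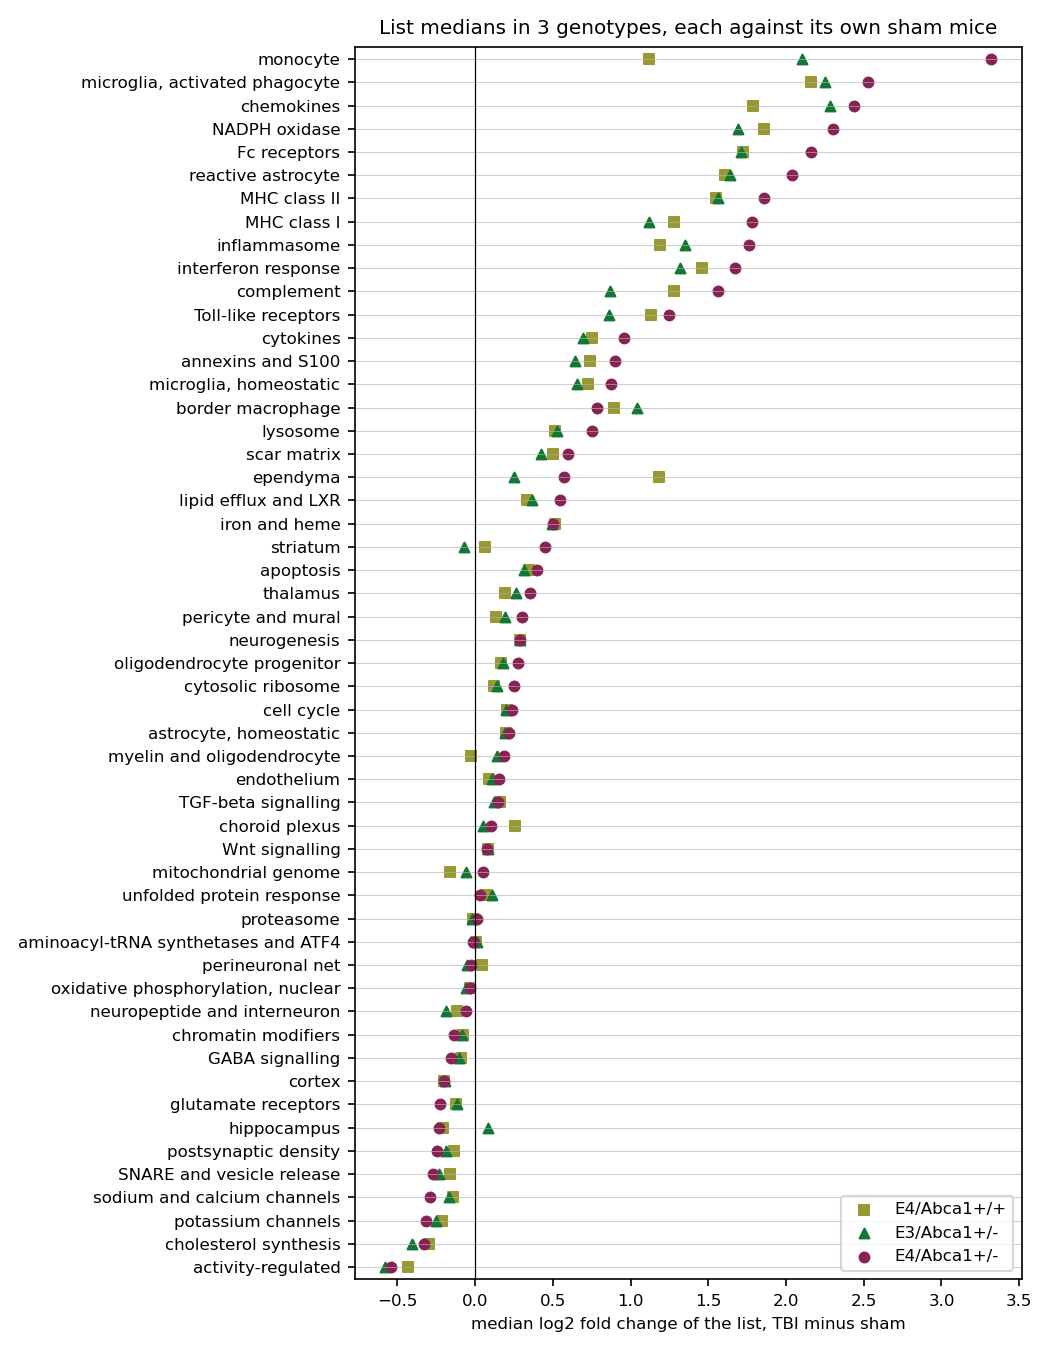
Median log2 fold change (TBI minus sham) of each gene list in E4/Abca1+/- (circles), E4/Abca1+/+ (squares) and E3/Abca1+/- mice (triangles), each against its own sham mice. The circles lie at the largest values for most immune lists, for example 2.53 for the phagocyte list, but no gene's difference between genotypes was called by edgeR.

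The differences themselves were tested gene by gene. The effect of injury was not called as different between E4/Abca1+/- and E4/Abca1+/+ mice for any gene, in either direction (0% of 15124, edgeR; 733 at an unadjusted p under 0.05, 465 of them with a positive difference; 0 by DESeq2). Among the smallest p were those of Gm9794 (difference 0.27) and Cers2, a ceramide synthase (0.34), at an adjusted p of 0.95 in edgeR. Between E4/Abca1+/- and E3/Abca1+/- mice edgeR again called 0 genes in either direction (0% of 15162; 961 at an unadjusted p under 0.05), and DESeq2's Wald test called 3, Spsb2, Stra13 and Serpina3n. For Stra13 the difference was 0.60 (adjusted p = 0.21, edgeR) and for Spsb2 1.11 (adjusted p = 0.265, edgeR). Serpina3n was the 1 of these whose rise was smaller in E4/Abca1+/- mice, by a log2 difference of -1.70 (adjusted p = 0.265, edgeR; 0.0482, DESeq2), with log2 fold changes of 1.37 in E4/Abca1+/- and 3.08 in E3/Abca1+/- mice.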

How the data were processed

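Brain RNA of 15 mice (8 E4/Abca1+/- TBI and 7 E4/Abca1+/- sham) was compared, 1 library per mouse, out of 58 mice grouped by the labels. The authors deposited 1 table of raw read counts per gene, which they made on mm10 with Subread/featureCounts, for which the submitters' processing notes give Subread 1.5.0. Strandedness and the annotation release are not given in the sources used here. Spreadsheet software had turned 23 gene symbols into dates, which were restored from their Entrez gene IDs through RefSeq, and 2 lines without a symbol or ID were left out. The deposited counts were used unchanged.

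Members and gene lists were chosen with earlier results of these data known. Of 15171 genes, 15083 passed filterByExpr over the 2 groups (88 removed). Counts were scaled by TMM and tested with edgeR 4.0.16 (glmQLFit and glmQLFTest, R 4.3.3), with Benjamini-Hochberg adjustment at 0.05. All tests were two-sided. Interactions with sex, Abca1 copies (in APOE4 mice) and isoform (in Abca1+/- mice) were fitted in edgeR over 4 groups. The code was tested on simulated data. Of 105 pairs of the 15 libraries 0 were identical. Lists are described by counts and medians beside those of all genes, and 50 of their 1295 genes were not among the genes tested. List levels are means of log2(CPM + 1). Promoters are those of RefSeq for GRCm38.p6, 250 bases before to 50 after the start, 14961 promoters of 11693 tested genes, and a gene was counted if any of its promoters held the motif.

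Totals of 5471936 to 37877346 counts set the precision. Alternatives were other scalings, DESeq2 1.42.0, limma-voom (limma 3.58.1), the edgeR exact test, other filters, a sex covariate, a fit over all 58 mice, thinned libraries and leaving out each mouse. TMM factors over 58 mice, and leaving out Sham 2, TBI 7 and TBI 8 together, were added after seeing the data. The genes named were Abca1, the 10 with the smallest p and the 10 with the largest fold in each direction (mean of at least 1 CPM in the higher group), the 3 with the smallest p in each interaction, and from each list the 4 with the smallest p or defining markers. Further list members were chosen after their values were seen, to show each list's range and roles. Some genes that the rule names are not reported here.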

Additional observations from a re-analysis of the deposited data

Results flagged for a closer look

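In each group a mouse was looked for whose gap to its nearest neighbour took up more of the group's range than Dixon's 95% limit allows. Over 56 lists and 36 genes, 37 of 184 group checks found one. The lists and genes were chosen with earlier results known, and many checks single out the same mouse. The count can therefore not be set against a chance rate. Sham 2 accounted for 21 of them, TBI 6 for 6, TBI 8 for 5, Sham 1 and Sham 3 for 2 each and Sham 6 for 1.

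Sham 2 stood apart above the other sham mice in 10 lists. On the log2(CPM + 1) scale it had 4.05 for the activated phagocyte list (others 2.79 to 3.12), 3.76 for complement (3.01 to 3.15), 2.66 for Toll-like receptors (2.29 to 2.40), 2.54 for NADPH oxidase (1.74 to 1.96) and 2.85 for the interferon response (2.32 to 2.48). It had 6.05 for the lysosome (5.69 to 5.75), 3.71 for reactive astrocytes (2.90 to 3.07), 1.54 for the inflammasome (1.19 to 1.32), 4.79 for iron and heme (4.26 to 4.43) and 4.01 for annexins and S100 (3.68 to 3.77). It was the lowest for chromatin modifiers, at 6.26 (6.39 to 6.46). Among genes it had 87.0 CPM of C1qa, 7.12 of Fcgr2b, 740 of Ctsd, 48.0 of Spp1, 7.83 of Gbp3 and 13.4 of Ifitm3. It had 16.5 CPM of Lcn2, 34.3 of C3, 0.999 of Cd5l and 0.499 of Mmp3, a gene listed at 0 in the other sham mice. In these 10 lists and in 8 of these 10 genes it lay below every TBI mouse, and for Cd5l and Mmp3 it lay within the range of the TBI mice.

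TBI 8 held 6.87 for the striatal list (others 4.33 to 4.70), 2.95 for the hippocampal list (4.32 to 4.75), 8.57 for the postsynaptic density (8.38 to 8.45) and 5.89 for potassium channels (5.59 to 5.72), with 58.4 CPM of Adora2a (1.38 to 5.97). TBI 6 held 7.67 for resting astrocytes (7.92 to 8.14), 4.22 for endothelium (4.49 to 4.71) and 6.17 for the proteasome (5.89 to 6.02), with 77.9 CPM of H2-Aa, 251 CPM of Igkc and 147 CPM of Igha.

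Among the other sham mice, Sham 6 had 2.10 for the monocyte list (2.27 to 2.40), Sham 1 had 4.02 for the thalamic list (3.58 to 3.76) and 6.75 CPM of Lct (20.0 to 24.3), and Sham 3 had 6.86 for the unfolded protein response (6.35 to 6.57) and 2.85 CPM of Krt20 (1.18 to 1.53).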

How the results depend on the processing

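Across the alternatives the count of higher genes stayed within 1.5 times of 2671 except with a change of at least 2-fold required (743 higher and 12 lower, fewer by construction), and that of lower genes also except with total counts alone (1269). Leaving out 1 mouse gave 2344 (without TBI 5) to 2795 (without TBI 6) higher and 2155 (without Sham 4) to 2865 (without TBI 8) lower genes. Thinning every library to the lowest total gave 2003 and 1775, a fit over all 58 mice 3147 and 2198, TMM factors over all 58 mice 2959 and 1927, and leaving out Sham 2, TBI 7 and TBI 8 together 2518 and 2638, the last pair of settings chosen after seeing the data. The interactions gave 0 genes in edgeR with each scaling, filter and covariate tried. DESeq2's Wald test gave 3 for isoform and 0 for the others, and an unadjusted p under 0.05 gave 232 for sex, 733 for Abca1 copies and 961 for isoform. Of 6376 values of 232 named genes under alternatives, 6244 kept direction and side of the threshold, 96 lost the call, 14 gained one and 22 changed sign. Among called genes, Lct lost its call without any 1 of 5 mice and Dsp without any 1 of 7. Other calls, among them those of Psmb6, Psmd2, Vcan, Vtn and Pdgfrb, were also lost without certain single mice. The sign changes were in genes without a call. Adora2a (1.34) became -0.40 with DESeq2's Wald test, -0.48 without TBI 8 and -0.56 without the 3 mice, and ranged from -0.48 to 1.79 over single mice left out. Ppp1r1b (0.42) became -0.16, -0.19 and -0.21 (range -0.19 to 0.52) under the same settings. Ttr (0.30) was -0.37 in limma-voom and ranged from -0.28 to 0.76, Enpp2 from -0.13 to 0.34, Sostdc1 from -0.13 to 0.39, and CYTB was -0.0048 without the 3 mice. The cause of these changes was not tested. Limits: the 7 sham libraries have at least 18311106 counts, and TBI 7 has 5471936, so genes near 3 counts are least precise. No paired analysis was possible because the labels give the mice no shared replicate numbers.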
